A study of Homo sapiens with 36 samples.

Results

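The miRNAs described here are 10 mature miRNAs of the proximal end of the imprinted region of chromosome band 14q32, in WI-38 cells, which are diploid fibroblasts from human lung. They were taken by name as the miRNAs that lie before the distal cluster, which runs from miR-379 to miR-656, near the genes MEG3 and RTL1, and they are 10 of the 1508 miRNAs listed in the count table. All 10 were detected in enough libraries to pass edgeR's low-count filter, as did 360 miRNAs in all. Small RNA was sequenced in 36 libraries, 2 biological replicates in each of 18 conditions. The control cells (Ctrl) were young, proliferating and untreated. Cells with plasma membrane damage-dependent senescence (PMD-Sen) had been treated with SDS, a detergent, and cells with DNA damage response-dependent senescence (DDR-Sen) with doxorubicin (DXR), a drug that breaks DNA. Both series were sampled at the end of the treatment (D0) and, after the washout, on D1 to D4, on D6, on D8 and on D16. Cells in replicative senescence (RS) had been passaged serially and received no agent. The cells came from 1 fibroblast strain, so the spread between replicates is the spread between cultures of that strain.

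In this region the DNA copy inherited from the father expresses the protein-coding genes DLK1 and RTL1, whereas the copy inherited from the mother expresses noncoding RNAs, MEG3 and MEG8 among them, and nearly all of the miRNAs. The miRNAs are cut as hairpins from long maternal transcripts and trimmed to mature strands. A mature miRNA is loaded into an Argonaute protein and pairs with mRNAs mainly through its seed, bases 2 to 8. RTL1 derives from a retrotransposon and is needed for the placenta. The miRNA hairpins on the strand opposite to it match its mRNA along their whole length, and in the mouse they cut it.

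The 10 miRNAs come from 9 hairpins, all on the plus strand of chromosome 14, between chr14:100852390-100911213 in GRCh38, a stretch of 58824 bases. MIR770 (chr14:100852390-100852487) lay within MEG3 and was exonic in 1 of the 31 MEG3 transcripts that span it. MIR493 (chr14:100869060-100869148) and MIR337 (chr14:100874493-100874585) lay in introns of MIR493HG, their noncoding host gene. MIR431, MIR433, MIR127, MIR432 and MIR136 lay within 3777 bases (chr14:100881007-100884783), each antisense to the coding exon of RTL1, which is on the minus strand. Of these 5 hairpins, MIR127 overlapped an exon of MIR493HG and the other 4 were intronic in it. MIR370 (chr14:100911139-100911213) lay further on, in introns of MIR493HG and MEG8, and the distal cluster began with MIR379, 110853 bases after it.

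The mature sequences from RefSeq (GRCh38.p14, all 10 matched by name) are shown because the 10 miRNAs are treated as 1 group below although no pair of them shares a seed. The seed is in capitals.
hsa-miR-770-5p: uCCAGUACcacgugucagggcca
hsa-miR-493-5p: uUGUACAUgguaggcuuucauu
hsa-miR-493-3p: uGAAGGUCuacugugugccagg
hsa-miR-337-3p: cUCCUAUAugaugccuuucuuc
hsa-miR-431-5p: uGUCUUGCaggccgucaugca
hsa-miR-433-3p: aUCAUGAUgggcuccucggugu
hsa-miR-127-3p: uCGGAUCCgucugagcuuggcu
hsa-miR-432-5p: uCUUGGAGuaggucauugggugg
hsa-miR-136-3p: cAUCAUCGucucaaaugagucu
hsa-miR-370-3p: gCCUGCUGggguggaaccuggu
The 10 seeds were all different. Of the other mature miRNAs in RefSeq, 1 shared a seed with a member, hsa-miR-4712-5p with miR-770-5p. miR-493-5p and miR-493-3p are the 2 arms of 1 hairpin and have different seeds.

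The libraries held 81670 (PMD-Sen D0 replicate 2) to 1933442 (PMD-Sen D16 replicate 1) miRNA counts. Levels are given as CPM, a library's counts scaled to 1 common total with the TMM method. A CPM is a share of the sequenced miRNA, so more of 1 miRNA and less of the others cannot be told apart. The 6 fibroblast markers (miR-199a-3p, miR-199a-5p, miR-214-3p, miR-143-3p, miR-145-5p and miR-21-5p) summed to between 51956 and 131841 CPM in the 36 libraries. The epithelial markers (miR-200 family and miR-141, 5 of 5 listed) summed to 14.6 to 163 CPM, the endothelial markers (2 of 2) to 18.4 to 200 CPM, the blood markers (3 of 5) to at most 12.6 CPM, the neuronal markers (2 of 2) to at most 17.6 CPM and the hepatocyte marker miR-122-5p to 6.44 to 264 CPM.

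Together the 10 miRNAs took 1.84% and 2.08% of the counts in the Ctrl libraries. Their share was 2.04% and 1.97% at PMD-Sen D0, 2.79% and 2.93% at D4, and 2.53% and 3.34% at D16. In DDR-Sen it was 1.74% and 1.64% at D0, 2.14% and 2.05% at D4, and 3.09% and 2.92% at D16. Of the unscaled counts, the share was thus above both Ctrl libraries from D3 of PMD-Sen and from D6 of DDR-Sen. The RS libraries, with 2.99% and 2.73%, were above them too. Unlike CPM, these shares are not scaled with TMM. The TMM factors, by which a library's total is multiplied, were 1.043 and 1.07 in Ctrl. They were 0.906 and 0.939 at DDR-Sen D3, 0.858 and 0.896 at DDR-Sen D4, and 1.078 and 1.049 at PMD-Sen D3. The lower factors raise the DDR-Sen share relative to Ctrl, so the day on which DDR-Sen passed Ctrl depends on the scaling. Which series passed Ctrl first was not tested.

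The levels spanned more than 2 orders of magnitude. In mean CPM over all libraries miR-493-5p (7160) was first and ranked 29 among all miRNAs, and it alone made up 31.3% of the members' counts. It was followed by miR-370-3p (4500), miR-127-3p (4270) and miR-432-5p (3360), whose ranges over libraries overlapped one another. Next came miR-493-3p (1730), then miR-431-5p (967) and miR-433-3p (909), a pair that also overlapped. miR-337-3p (297), miR-136-3p (104) and miR-770-5p (13.2, rank 336) were the least abundant. These levels compare counts of molecules of nearly the same length, 21 to 23 bases, but the efficiency with which a sequence is ligated and read differs between miRNAs and was not corrected.

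**Figure D1:**
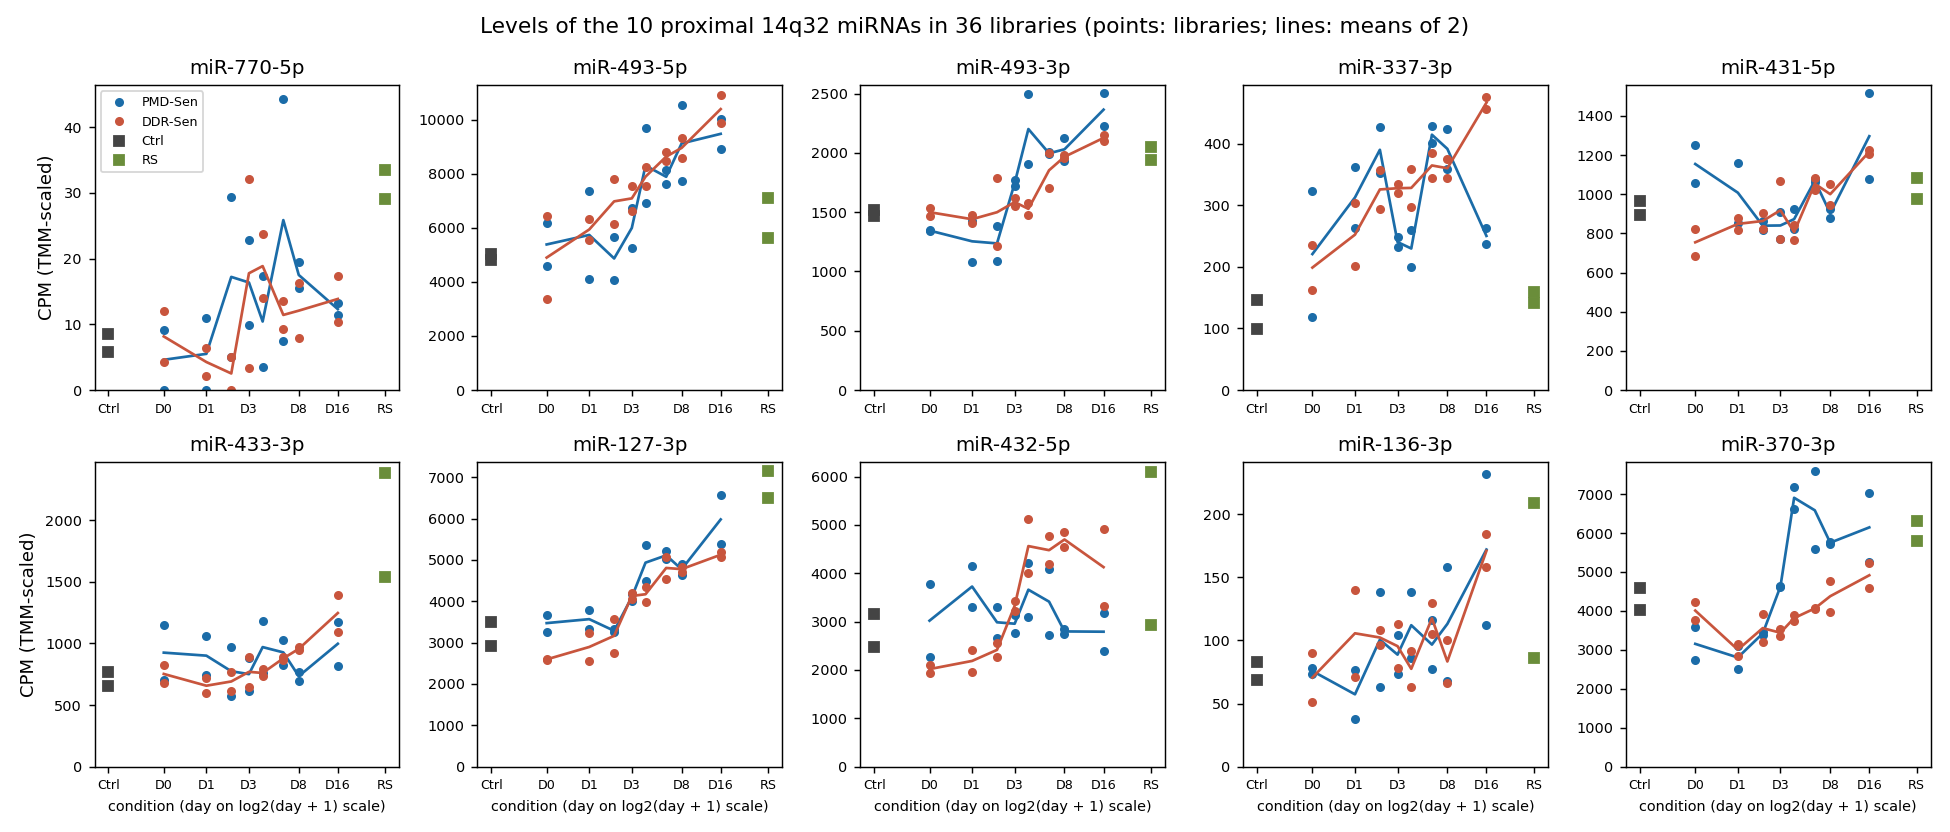
CPM of each of the 10 miRNAs (vertical axis, from 0, a scale of its own in each panel) in every library, against the condition (horizontal axis, days on a log2(day + 1) scale, with Ctrl at the left and RS at the right). Circles are libraries of PMD-Sen (blue) and DDR-Sen (red), lines join the means of 2 replicates and squares are Ctrl and RS; miR-127-3p and miR-493-5p climb in both series, while the lines of miR-370-3p and miR-432-5p part in opposite directions.

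The slopes used the time points of a series alone, without Ctrl: each is the change in log2 CPM per doubling of (day + 1) from D0 to D16, tested with edgeR and called at an adjusted p below 0.05. In PMD-Sen 5 of the 10 miRNAs rose with day (miR-493-5p, miR-493-3p, miR-127-3p, miR-136-3p and miR-370-3p), where 16.1% of the 360 tested miRNAs rose. In DDR-Sen 8 rose (all but miR-770-5p and miR-136-3p), where 11.9% of the tested miRNAs rose. No member fell with day in either series, where 18.3% (PMD-Sen) and 13.9% (DDR-Sen) of tested miRNAs fell. miR-493-5p, miR-493-3p, miR-127-3p and miR-370-3p rose in both, which are series with no library in common. These 4 were 80.0% of the members that rose in PMD-Sen and 50.0% of those that rose in DDR-Sen, and over all tested miRNAs the 22 that rose in both were 37.9% and 51.2%. The members had a median slope of 0.23 in each series, beside 0.01 over all tested miRNAs. Of the markers of other cell types, endothelial miR-126-3p had slopes of 0.34 in PMD-Sen and 0.08 in DDR-Sen. Epithelial miR-200c-3p had -0.60 and -0.27, and hepatocyte miR-122-5p had -0.97 and -0.46. The 6 fibroblast markers sloped down in DDR-Sen, from -0.13 (miR-21-5p) to -0.38 (miR-143-3p). In PMD-Sen they went both ways, from -0.39 (miR-214-3p) to 0.10 (miR-143-3p). Whether these changes bear on the members' rise was not tested. PMD-Sen libraries were shallow at D0 (104436 and 81670 counts) and held 1933442 and 440285 counts at D16, the first of which was the deepest of the series. With every library thinned to 81670 counts, 4 of the 9 members tested rose in PMD-Sen and 7 in DDR-Sen, beside 19.2% and 14.6% of the 240 miRNAs then tested.

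**Figure D2:**
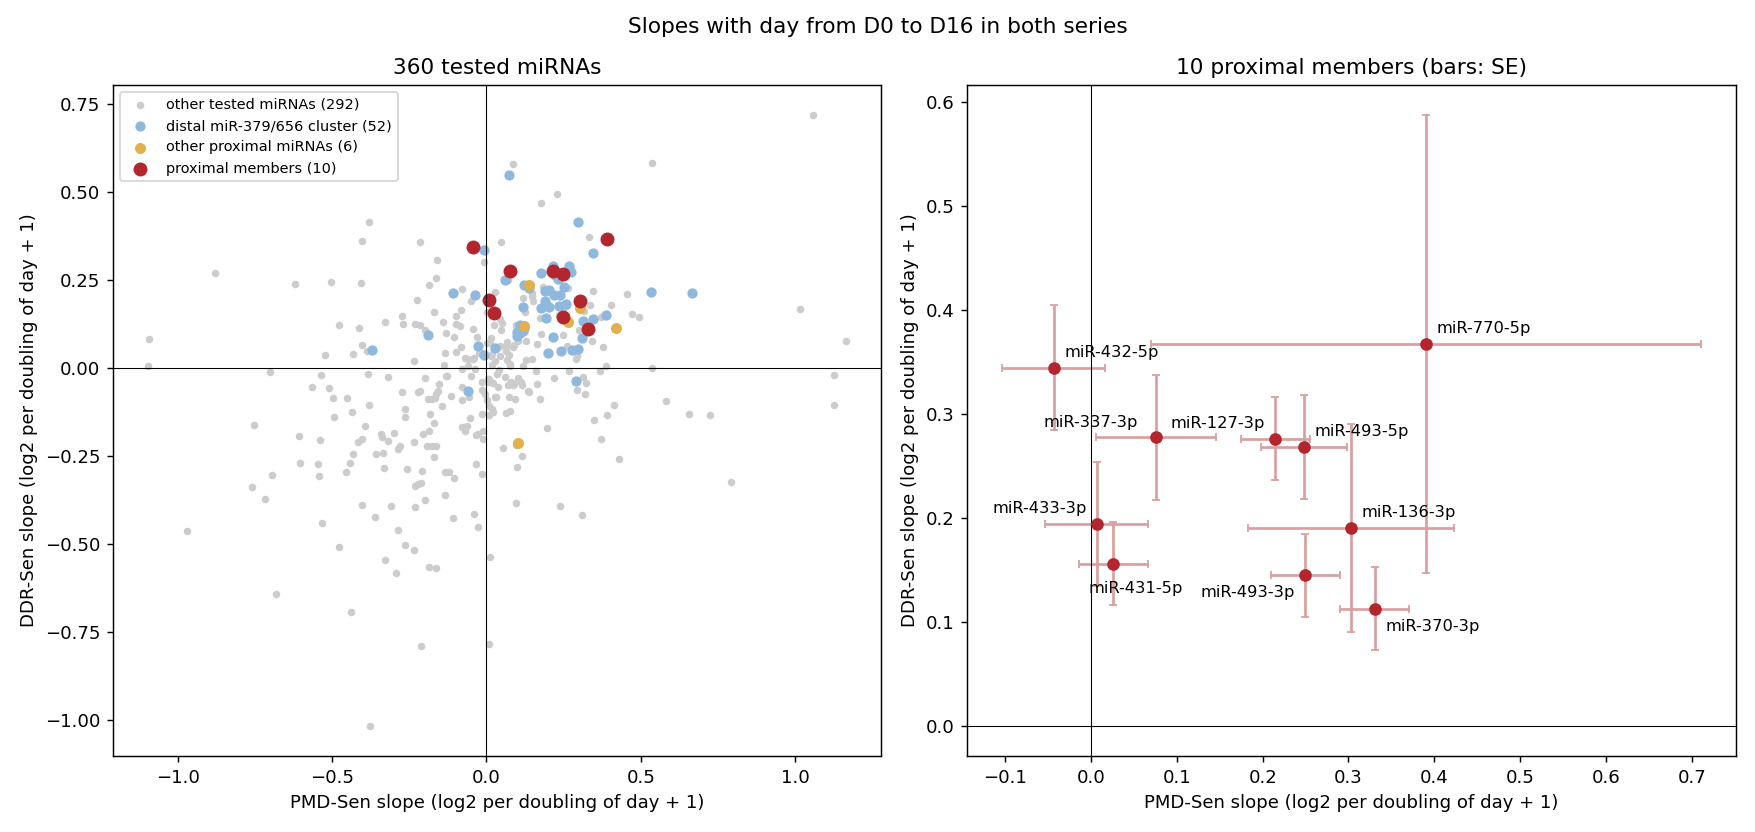
Slope in DDR-Sen (vertical axis) against slope in PMD-Sen (horizontal axis), both in log2 CPM per doubling of (day + 1), for the 360 tested miRNAs at the left and for the 10 members with their SE at the right. The members lie above 0 on the vertical axis, and all but miR-432-5p, at -0.04, lie above 0 on the horizontal axis.

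miR-127-3p, one of the miRNAs antisense to RTL1, rose in both series. In PMD-Sen its 6 libraries of D0 to D2 held 3253 to 3797 CPM (median 3326) and the 6 libraries of D6 to D16 held 4638 to 6562 CPM (median 5110). In DDR-Sen the early libraries held 2564 to 3576 CPM (median 2681) and the late ones 4541 to 5187 CPM (median 4947). Early and late libraries did not overlap in either series. The share of all tested miRNAs that separate in this way is not given. Such separations, here and below, are therefore descriptions and not results about the members. The slope was 0.21 ± 0.04 (SE) in PMD-Sen, with an adjusted p of 3.77e-05, and 0.28 ± 0.04 in DDR-Sen, with an adjusted p of 7.81e-07. Both calls held in every alternative fit.

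miR-493-5p, which had the highest mean of the 10 over all libraries but not in RS, also separated early from late libraries in both series. Its early PMD-Sen libraries held 4073 to 7352 CPM (median 5124) and its late ones 7622 to 10530 CPM (median 8540). The early DDR-Sen libraries held 3376 to 7816 CPM (median 6231) and the late ones 8472 to 10913 CPM (median 9067). The slopes were 0.25 ± 0.05 in PMD-Sen (adjusted p = 0.000765) and 0.27 ± 0.05 in DDR-Sen (adjusted p = 0.000386), and they differed by -0.02 (95% interval -0.17 to 0.13). miR-493-3p, from the other arm of the hairpin, did not overlap between 1081 to 1428 CPM early and 1935 to 2503 CPM late in PMD-Sen, with a slope of 0.25 ± 0.04 (adjusted p = 2.74e-05). In DDR-Sen its libraries overlapped, at 1211 to 1789 CPM early and 1707 to 2152 CPM late, and the slope was 0.14 ± 0.04 (adjusted p = 0.00592). That call was lost when D16 was left out (0.12, adjusted p = 0.071) and without the low-count filter (0.13, adjusted p = 0.163).

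The balance of the 2 arms of MIR493 was followed as the difference of their log2 CPM, 5p minus 3p. It was 1.73 and 1.71 in the Ctrl libraries and 1.54 and 1.79 in the RS libraries. Among the treated conditions its mean lay between 1.63 (DDR-Sen D0, from 2.06 and 1.20) and 2.36 (DDR-Sen D4, from 2.48 and 2.25). The 5p arm thus outnumbered the 3p arm in every library. In each series 15 of the 16 libraries were above both Ctrl libraries, the exceptions being replicate 2 of DDR-Sen D0 (1.20) and replicate 2 of PMD-Sen D3 (1.57).

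miR-370-3p, the member nearest to the distal cluster, rose in both series and more in PMD-Sen. It stood at 4031 and 4579 CPM in Ctrl. In PMD-Sen the D1 libraries held 2512 and 3093 CPM, D2 had 3373 and 3468, D3 had 4637 and 4612, and D4 had 6620 and 7189. It then stayed between 5268 and 7581 CPM from D6 to D16. All 6 PMD-Sen libraries of D0 to D2 were therefore below both Ctrl libraries, and those of D3 to D16 were above them. In DDR-Sen it held 3156 and 2850 CPM at D1, 3885 and 3747 at D4, and 5231 and 4598 at D16, so that 10 of the 16 DDR-Sen libraries were below both Ctrl libraries and 3 were above. The slope was 0.33 ± 0.04 in PMD-Sen (adjusted p = 4.99e-07) and 0.11 ± 0.04 in DDR-Sen (adjusted p = 0.0277). The DDR-Sen call was lost in 9 of 25 alternative fits, among them the fit without D16 (0.072, adjusted p = 0.316).

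The PMD-Sen slope of miR-370-3p exceeded its DDR-Sen slope by 0.22 ± 0.05 (adjusted p = 0.00718), a comparison chosen after the slopes had been seen, in which 4.72% of tested miRNAs were higher in PMD-Sen and 5.83% were lower. Averaged over D1 to D16, miR-370-3p was 0.36 ± 0.07 higher in PMD-Sen than in DDR-Sen on the log2 scale (1.29-fold, adjusted p = 0.000271). It was the only member called in that comparison, in which 9.17% of tested miRNAs were called higher. Day by day, the difference was -0.34 on D0, -0.10 on D1, -0.06 on D2, 0.43 on D3, 0.86 on D4, 0.70 on D6, 0.39 on D8 and 0.32 on D16. Of the 8 days, edgeR called D4 alone (SE 0.18, adjusted p = 0.0145), where 0.833% of tested miRNAs were called higher. DESeq2 called miR-370-3p at D4 (0.91, adjusted p = 0.000163) and also at D6 (0.75, adjusted p = 0.00299), and it called miR-493-3p at D4 (0.57, adjusted p = 0.0197). The share of all tested miRNAs that DESeq2 called, here and below, is not given. Its additional calls are therefore not read as results about the members. The call at D4 was lost without PMD-Sen D4 replicate 2 and without either DDR-Sen D4 library, with differences of 0.79 to 0.90.

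miR-432-5p, antisense to RTL1, went the other way. In DDR-Sen the D0 libraries held 2103 and 1933 CPM, D2 had 2267 and 2564, D3 had 3435 and 3221, D4 had 5130 and 3996, and D8 had 4546 and 4853. At D16 the replicates lay apart, at 4925 and 3330 CPM. Early and late libraries did not overlap, the medians differed 2.13-fold, and the slope was 0.34 ± 0.06 (adjusted p = 4.55e-05). In PMD-Sen the early libraries held 2263 to 4142 CPM (median 3309) and the late ones 2402 to 4098 CPM (median 2798), with a slope of -0.04 ± 0.06 (adjusted p = 0.585). The slopes differed by -0.39 ± 0.08 (adjusted p = 0.00335), again in a comparison chosen after they had been seen. The differences of the slopes of miR-432-5p and of miR-370-3p remained called in each of the alternative fits that gave them.

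miR-337-3p was above Ctrl early and kept no steady course in PMD-Sen. It held 98.8 and 146 CPM in Ctrl, and all 16 DDR-Sen libraries and 15 of the 16 PMD-Sen libraries were above both. In PMD-Sen the D1 libraries held 362 and 264 CPM, D2 had 428 and 353, D3 had 248 and 233, D4 had 260 and 200, D6 had 429 and 401, and D16 had 237 and 264. The D8 libraries held 360 and 424 CPM. The level was thus high, lower, high again and lower at D16, a course from day to day that was not tested. The slope was 0.08 ± 0.07 (adjusted p = 0.396). In DDR-Sen it held 236 and 162 CPM at D0, 294 and 358 at D2, 344 and 386 at D6, and 477 and 457 at D16. The slope there was 0.28 ± 0.06 (adjusted p = 0.00083), and its difference from the PMD-Sen slope was not called (-0.20, adjusted p = 0.137).

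The remaining members rose in 1 series at most. miR-433-3p held 598 to 822 CPM early and 866 to 1397 CPM late in DDR-Sen, without overlap (slope 0.19 ± 0.06, adjusted p = 0.0128), and 574 to 1149 and 699 to 1178 CPM in PMD-Sen (slope 0.01 ± 0.06, adjusted p = 0.943). miR-431-5p held 687 to 905 CPM early and 947 to 1226 CPM late in DDR-Sen (slope 0.16 ± 0.04, adjusted p = 0.00537), and 815 to 1250 and 880 to 1517 CPM in PMD-Sen (slope 0.03 ± 0.04, adjusted p = 0.68). Both DDR-Sen calls were lost without D16 and without 1 of the D0 libraries, replicate 1 for miR-433-3p (adjusted p = 0.0802) and replicate 2 for miR-431-5p (adjusted p = 0.0534). The call of miR-431-5p was also lost without the low-count filter (0.14, adjusted p = 0.163). Like miR-432-5p, miR-433-3p and miR-431-5p are antisense to RTL1 and were called with day in DDR-Sen only. Of the other antisense miRNAs, miR-127-3p was called in both series and miR-136-3p in PMD-Sen only. miR-337-3p, which is not antisense to RTL1, was also called in DDR-Sen only. The difference between the slopes was not called for miR-433-3p or miR-431-5p (adjusted p = 0.142 and 0.146).

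miR-136-3p, the last of the antisense miRNAs, was read 6 to 426 times per library. Its PMD-Sen slope of 0.30 ± 0.12 was called narrowly (adjusted p = 0.0449), and the call was lost in 13 of 25 alternative fits, for example without PMD-Sen D16 replicate 1 (0.19, adjusted p = 0.273) and with thinned libraries (0.18, adjusted p = 0.274). The slope in DDR-Sen was 0.19 ± 0.10 (adjusted p = 0.156). miR-770-5p was read at most 21 times in a library and at most 3 times in 13 of the 36, so its levels rest on few counts. It had 4 counts in the Ctrl libraries together, 32 in the RS libraries, 27 in those of PMD-Sen D16 and 13 in those of DDR-Sen D16. It was not called in RS with edgeR (2.12 ± 1.02, adjusted p = 0.134). Its slopes were 0.39 ± 0.32 in PMD-Sen (adjusted p = 0.35) and 0.37 ± 0.22 in DDR-Sen (adjusted p = 0.214). Leaving out 1 library moved the PMD-Sen slope between 0.24 and 1.17 and the DDR-Sen slope between 0.25 and 0.53. The ratio of counts to Ctrl was 4.48 in RS, with an exact 95% interval of 1.59 to 17.4 that covers counting error only. The intervals for PMD-Sen D16 (0.598 to 6.75) and DDR-Sen D16 (0.645 to 8.79) included 1.

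Every time point was also compared with Ctrl. These 17 comparisons share the same 2 Ctrl libraries, so an atypical Ctrl library would move all of them. At PMD-Sen D0 no member was called, nor at D3, where 0.278% of tested miRNAs were called each time. In both comparisons 2 members had an unadjusted p below 0.05 and DESeq2 called 0. Counts at an unadjusted p alone, here and below, lack the share of all tested miRNAs at that threshold. They are not read as results about the members. miR-337-3p was called at PMD-Sen D1 (log2 fold change 1.35 ± 0.32, adjusted p = 0.0149; 0.833% of tested miRNAs higher) and at D2 (1.66 ± 0.31, adjusted p = 0.00173; 1.11%). At D4, where 1.94% were higher, miR-127-3p (0.62) and miR-370-3p (0.68) were called. miR-127-3p, miR-337-3p and miR-370-3p were called at D6 (3.33%), and miR-493-5p, miR-337-3p and miR-127-3p at D8 (5.28%). Of 11 alternative fits, 6 each lost the calls of miR-127-3p at D4 and of miR-370-3p at D6. Those of miR-127-3p at D6 and at D8 were lost in 5 each, and that of miR-493-5p at D8 in 3. The value of miR-370-3p at D6 was 0.61, and 0.38 without PMD-Sen D6 replicate 2.

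In DDR-Sen no member was called at D0, where 0.0% of tested miRNAs were called, or at D1, where 0.278% were. At an unadjusted p below 0.05 there was 1 member at D0 (miR-337-3p) and 2 at D1, and DESeq2 called 0 at both. miR-337-3p alone was called at D2 (1.39 ± 0.31, adjusted p = 0.0399; 0.278% of tested miRNAs higher), D3 (1.40; 2.5%) and D4 (1.40; 5.0%). miR-493-5p, miR-337-3p and miR-127-3p were called at D6 (5.83%) and D8 (5.56%). Several of these calls were narrow. Of 11 alternative fits, 9 lost that of miR-493-5p at DDR-Sen D6, and 7 each lost those of miR-127-3p at DDR-Sen D6 and D8, miR-337-3p at DDR-Sen D2 and miR-370-3p at PMD-Sen D4. The calls of miR-337-3p at D6 and D8 were lost in 0 of 11 in both series. The first call in each series was of miR-337-3p. That at PMD-Sen D1 was lost in 5 of 11 alternative fits, among them those without either Ctrl library (adjusted p = 0.164 and 0.0771). Each of the calls listed was of a higher level than in Ctrl. The 2 series together gave 19 calls before D16. Fits without 1 library gave 4 to 21 in all, the fewest without Ctrl replicate 1 (4) and Ctrl replicate 2 (8).

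**Figure D3:**
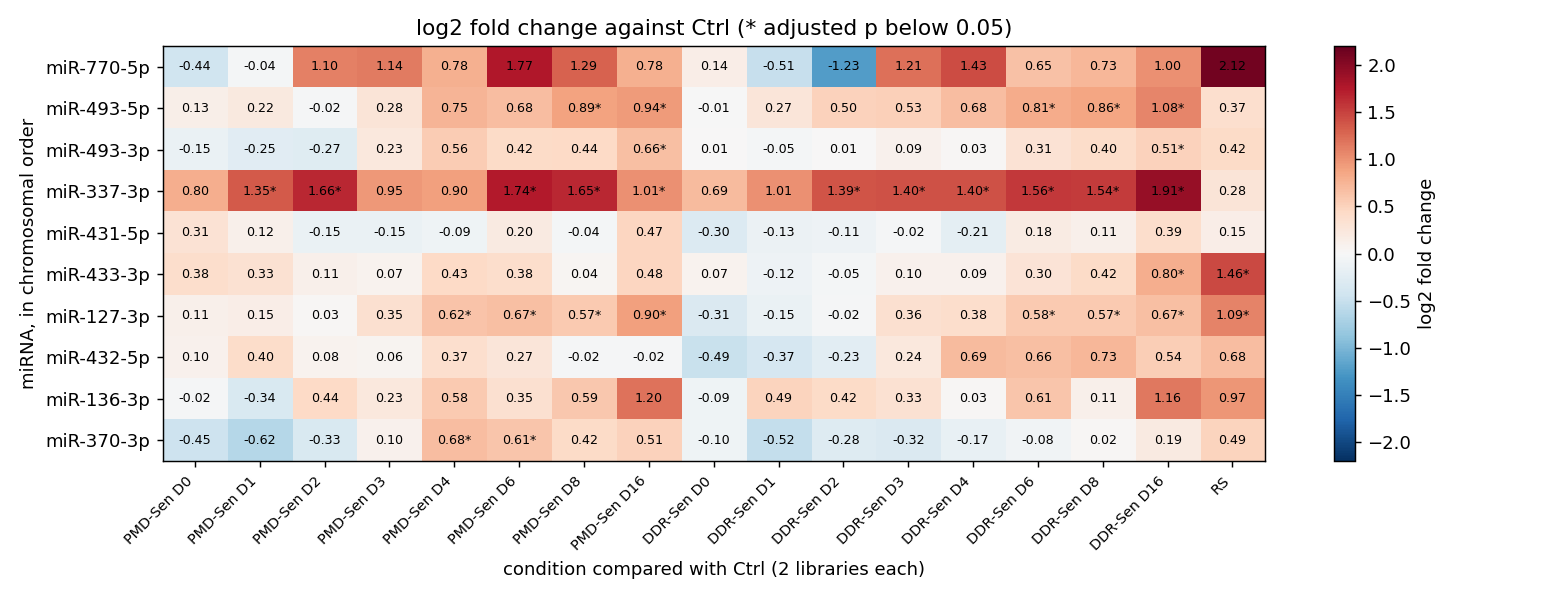
log2 fold change against Ctrl (colour and printed value) of the 10 miRNAs, in chromosomal order from top to bottom, in 17 conditions from left to right. An asterisk marks an adjusted p below 0.05; miR-337-3p has asterisks at PMD-Sen D1, D2, D6, D8 and D16 and from D2 of DDR-Sen on, and the values of miR-770-5p rest on 4 counts in Ctrl.

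At PMD-Sen D16 4 members were higher than in Ctrl, where 8.89% of tested miRNAs were higher. miR-493-5p stood at 8922 and 10038 CPM against 5032 and 4822 in Ctrl (log2 fold change 0.94 ± 0.26, adjusted p = 0.0133). miR-127-3p stood at 5394 and 6562 CPM against 2913 and 3504 (0.90 ± 0.17, adjusted p = 0.000823). miR-493-3p was 0.66 ± 0.19 higher (adjusted p = 0.0171) and miR-337-3p was 1.01 ± 0.31 higher (adjusted p = 0.0259). The PMD-Sen libraries were above both Ctrl libraries in these 4 and in 9 of the 10 members, as they were in 35.8% of all tested miRNAs. Only the call of miR-127-3p held whichever library was left out. The others were lost without either Ctrl library. The count was 1 in both of those fits, 2 without PMD-Sen D16 replicate 2, and 4 without replicate 1, where miR-337-3p was lost and miR-370-3p was called. miR-136-3p (1.20 ± 0.48, adjusted p = 0.0769) and miR-370-3p (0.51 ± 0.18, adjusted p = 0.0536) were not called, and miR-432-5p was at -0.02 ± 0.27. The value of miR-136-3p rested on replicates at 232 and 112 CPM, and was 0.55 without replicate 1 of PMD-Sen D16 (not called) and 1.60 without replicate 2 (called).

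At DDR-Sen D16 5 members were higher than in Ctrl, where 11.4% of tested miRNAs were higher. miR-337-3p stood at 477 and 457 CPM against 98.8 and 146 in Ctrl (3.75-fold, log2 fold change 1.91 ± 0.31, adjusted p = 4.32e-05). miR-493-5p stood at 10913 and 9879 CPM (1.08 ± 0.26, adjusted p = 0.00315) and miR-127-3p at 5060 and 5187 CPM (0.67 ± 0.17, adjusted p = 0.00467). The calls of miR-337-3p and miR-493-5p held in every alternative fit, and that of miR-127-3p was lost in 1 of 12, without Ctrl replicate 1 (0.55, adjusted p = 0.081), as well as under the thresholds of the study. miR-433-3p (0.80 ± 0.29, adjusted p = 0.0398) and miR-493-3p (0.51 ± 0.19, adjusted p = 0.0499) were called too, but both calls were lost in 8 of 12 alternative fits, among them each fit without 1 library.

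In RS 2 members were higher than in Ctrl, where 10.3% of tested miRNAs were higher. miR-127-3p stood at 6489 and 7148 CPM, its highest mean of the 18 conditions (log2 fold change 1.09 ± 0.17, adjusted p = 1.6e-05). miR-433-3p stood at 2386 and 1542 CPM against 657 and 767 in Ctrl, also its highest mean (1.46 ± 0.29, adjusted p = 0.000268). Both calls held in every alternative fit. miR-337-3p, the member with the highest fold change at DDR-Sen D16 among those called, stood at 141 and 159 CPM in RS and overlapped Ctrl (0.28 ± 0.32, adjusted p = 0.553). Leaving out 1 library moved that RS value between 0.04 and 0.61. The RS replicates lay far apart for miR-432-5p, at 6103 and 2938 CPM, and for miR-136-3p, at 85.9 and 209 CPM. Over all tested miRNAs the RS pair had a chi-square of 106 per degree of freedom, a measure that grows with depth, beside 4.31 to 53.1 in the other pairs. Its correlation of log2 CPM across miRNAs was 0.958, where the other pairs spanned 0.937 to 0.987.

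**Figure D4:**
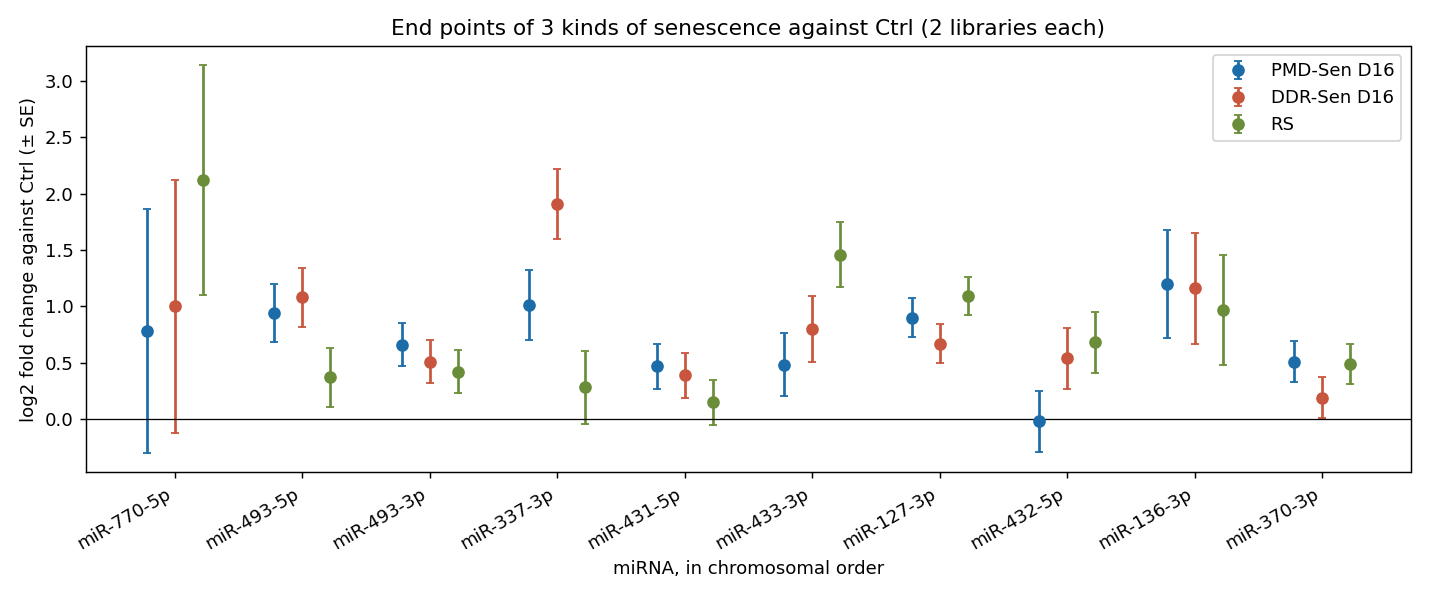
log2 fold change against Ctrl with its SE (vertical axis) of the 10 miRNAs in chromosomal order (horizontal axis), with PMD-Sen D16 in blue, DDR-Sen D16 in red and RS in green. miR-337-3p is at 1.91 in DDR-Sen and 0.28 in RS, whereas miR-433-3p is at 0.48 in PMD-Sen and 1.46 in RS. Leaving out 1 library moved miR-337-3p in RS between 0.04 and 0.61 and miR-433-3p at PMD-Sen D16 between 0.2 and 0.72. All 3 conditions use the same 2 Ctrl libraries.

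With the thresholds of the study, which require a raw p below 0.05 and a log2 fold change beyond 1, 2 members were higher at PMD-Sen D16 (6.67% of tested miRNAs), 3 at DDR-Sen D16 (8.33%) and 3 in RS (8.89%). These rules added miR-136-3p at both D16 points and miR-770-5p in RS, and they left out miR-127-3p and miR-493-3p at both D16 points, miR-493-5p at PMD-Sen D16 and miR-433-3p at DDR-Sen D16.

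The senescent end points were then compared with one another directly. Of PMD-Sen D16 against DDR-Sen D16 edgeR called no member, where 0.556% of tested miRNAs were called in either direction. At an unadjusted p below 0.05 there were 2, miR-432-5p (-0.57, 95% interval -1.10 to -0.03) and miR-337-3p (-0.90, 95% interval -1.45 to -0.36, adjusted p = 0.157), both lower in PMD-Sen. DESeq2 called 1, miR-337-3p (-0.98, adjusted p = 0.0125). miR-433-3p was lower at PMD-Sen D16 than in RS (817 and 1178 against 2386 and 1542 CPM, log2 difference -0.98 ± 0.28, adjusted p = 0.0234), where 3.06% of tested miRNAs were lower. That call was lost without RS replicate 1 (-0.64, adjusted p = 0.329) and without PMD-Sen D16 replicate 1 (-0.74, adjusted p = 0.311). miR-337-3p was higher at DDR-Sen D16 than in RS (1.63 ± 0.29, adjusted p = 0.000525), where 1.94% of tested miRNAs were higher, and this held whichever library was left out, though not with only the 4 libraries compared (1.62, adjusted p = 0.239).

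The proximal stretch gives 8 further listed mature miRNAs, 7 of them opposite arms of the members' hairpins and the other miR-665, which has a hairpin of its own. Of these, 5 opposite arms and miR-665 passed the low-count filter. In the summed counts the member arm made up 79.2% of MIR337, 90.2% of MIR127, 91.7% of MIR431 and at least 95.6% of MIR136, MIR433, MIR370 and MIR432. Of MIR493, both of whose arms are members, the 5p arm made up 80.5%. miR-127-5p rose with day in PMD-Sen (0.26 ± 0.06, adjusted p = 0.000516), as its partner miR-127-3p did, and its slope in DDR-Sen was 0.13 ± 0.05 (adjusted p = 0.0526). Against Ctrl, miR-337-5p was called at PMD-Sen D6 (1.95 ± 0.58, adjusted p = 0.0361; 3.33% of tested miRNAs higher) and DDR-Sen D16 (1.58 ± 0.58, adjusted p = 0.0498; 11.4%), and miR-127-5p at PMD-Sen D16 (0.78 ± 0.24, adjusted p = 0.0273; 8.89%). Over D1 to D16, miR-127-5p (0.33), miR-431-3p (0.47) and miR-665 (0.71) were called higher in PMD-Sen than in DDR-Sen, as were 9.17% of tested miRNAs. At D4 miR-127-5p was 1.15 ± 0.25 higher in PMD-Sen (adjusted p = 0.0145).

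The distal cluster of the same imprinted region, with 52 of its 71 listed miRNAs tested, moved in a like direction. At PMD-Sen D16 the median log2 fold change was 0.72 over the 10 members, 0.66 over the distal miRNAs and 0.05 over all tested miRNAs. At DDR-Sen D16 these medians were 0.74, 0.63 and -0.03, and in RS they were 0.58, 0.57 and 0.12. Of the distal miRNAs 14, 17 and 12 were called higher in these conditions and 0 lower, beside 8.89%, 11.4% and 10.3% of all tested miRNAs higher. With day, 20 distal miRNAs rose in PMD-Sen and 1 fell, and 17 rose in DDR-Sen, beside 16.1% and 11.9% of all tested miRNAs that rose. The proximal and distal medians were not tested against each other.

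Finally, the 3 tested miRNAs whose mean log2 CPM followed each member most closely over the 18 conditions were listed by Pearson's r, as a description. Of these 30 neighbours 21 were distal 14q32 miRNAs, 3 were members and 6 came from elsewhere. miR-432-5p was nearest to miR-134-5p (r = 0.962), miR-493-5p to miR-323a-3p (0.949) and miR-127-3p to miR-409-5p (0.915), all distal. miR-370-3p was nearest to miR-493-3p (0.885), which was itself nearest to the distal miR-487b-3p (0.906). The neighbours from elsewhere included miR-181a-5p and miR-181c-5p for miR-433-3p (0.853 and 0.771), miR-374b-5p for miR-337-3p (0.818) and miR-27b-3p for miR-136-3p (0.839). The 45 pairs of members had a median r of 0.506, from -0.127 (miR-337-3p with miR-433-3p) to 0.885, and all pairs of tested miRNAs had a median of 0.003. The conditions share the scaling of their libraries and, within a series, the treatment.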

How the data were processed

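The data were 36 small RNA libraries. According to the study's methods, reads were trimmed, mapped to GRCh38 and assigned to miRBase entries by the authors with exceRpt, a small RNA pipeline. The deposited values are expected counts per mature miRNA, not normalized; reads that fit several miRNAs are divided among them, but all values of the 10 members were whole. Columns were matched to samples by their labels, and 0 columns were left without a sample. Locations came from GENCODE version 44.

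Counts were rounded and tested in 1 model of 18 conditions with edgeR 4.0.16 in R 4.3.3 (TMM, filterByExpr, quasi-likelihood test, Benjamini-Hochberg adjustment over the 360 tested miRNAs, called at an adjusted p below 0.05). Those miRNAs held at least 99.8% of every library. The coefficient of variation between replicates was 20.9%. The floor was set at 3 counts per library. Intervals are 95%.

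On simulated counts for PMD-Sen D16 against Ctrl, 176 of 189 miRNAs changed by a log2 fold change of 2 were called (93.1%; 338 tested), but 105 of 190 changed by 1 (55.3%; 340 tested), with 6 of 149 and 3 of 150 unchanged ones. For the DDR-Sen slope, 185 of 193 miRNAs changed by 0.5 were called (343 tested) and 133 of 188 changed by 0.25 (339 tested), with 5 of 150 and 1 of 151 unchanged ones. The simulation changed 200 miRNAs and set the spread between replicates by abundance alone. In the data 32 of 360 miRNAs were called higher and 28 lower at PMD-Sen D16. The adjustment is stricter where fewer miRNAs change, so recovery in the data may be lower than in the simulation.

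The members and lists were chosen with earlier results of these data known. All members are named. Of other miRNAs, those of the proximal hairpins (miR-665 included) that passed the filter, the 3 nearest in pattern to each member and, for the distal cluster, counts and medians are given. Alternatives were DESeq2 1.42.0, DESeq2's size factors or total counts, a filter on the mean (10 counts) or none, the study's thresholds, a replicate block, thinned libraries, only the 4 libraries compared, other forms of the slope, series and day as additive terms, and leaving out each library. The mRNA data were not analysed here.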

Additional observations from a re-analysis of the deposited data

Results flagged for a closer look

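In 4 results, of miR-370-3p and miR-432-5p only, the difference between PMD-Sen and DDR-Sen was itself tested and called. miR-370-3p was higher in PMD-Sen by 0.36 (log2) on average over D1 to D16, and its slope with day exceeded that in DDR-Sen by 0.22. At D4, where it held 6620 and 7189 CPM in PMD-Sen and 3885 and 3747 CPM in DDR-Sen, it was 0.86 higher. Leaving out 1 library moved that D4 difference between 0.79 and 0.91, and its call did not hold in every such fit. For miR-432-5p the slope in PMD-Sen minus that in DDR-Sen was -0.39. Of all tested miRNAs, 9.17% were called higher in PMD-Sen over D1 to D16 and 0.833% at D4. For the difference of slopes 4.72% were called higher and 5.83% lower. The slope differences and the comparison at D4 were chosen after the time courses had been seen.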

How the results depend on the processing

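With total counts in place of TMM the median log2 fold change of all tested miRNAs shifted by up to -0.264 (DDR-Sen D4 against Ctrl), and that of PMD-Sen minus DDR-Sen by 0.169. Members called at PMD-Sen D16 numbered 4, 2 under the study's thresholds or without the low-count filter, and 5 with only the 4 libraries compared (miR-136-3p added). At DDR-Sen D16 they numbered 5, and 3 under the study's thresholds, total counts, no filter, a mean of at least 10 counts or thinning, but 7 with only the 4 libraries compared (miR-136-3p and miR-432-5p added). The DDR-Sen slope gave 8, 5 without the filter and 4 without D16. For PMD-Sen minus DDR-Sen, 1 member became 0 under the study's thresholds, 2 with DESeq2 or additive terms (miR-127-3p added) and 3 with total counts (miR-127-3p and miR-493-3p added). PMD-Sen D16 against DDR-Sen D16 gave 0, and 1 with DESeq2. PMD-Sen D16 against RS gave 1, and 0 under the study's thresholds or with only the 4 libraries compared, as did DDR-Sen D16 against RS with those 4. The 19 calls before D16 became 10 under the study's thresholds, 10 without the filter and 12 after thinning. The cause of these shifts was not tested, except that thinning left 240 miRNAs and 9 members to test. Most member counts under alternative fits, here and below, lack the share of all tested miRNAs called in the same fit. They show how far the calls depend on the fit and are not read as results about the members. Leaving out 1 library gave 4 to 21 calls before D16, 1 to 4 at PMD-Sen D16, 2 to 3 at DDR-Sen D16, 2 to 3 in RS, 4 to 5 and 6 to 8 for the slopes of PMD-Sen and DDR-Sen, 1 to 1 for PMD-Sen minus DDR-Sen, 0 to 0 between the D16 points, 0 to 3 for PMD-Sen D16 and 1 to 2 for DDR-Sen D16 against RS. A lone sample was then assumed to vary like the other conditions.

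Signs changed only in values that were not called. miR-432-5p at PMD-Sen D16 became 0.062 without the filter and its PMD-Sen slope 0.015. The PMD-Sen slope of miR-433-3p became -0.0015 with total counts, -0.012 with a mean of at least 10 counts, -0.0098 after thinning and -0.052 without D16, where that of miR-431-5p became -0.08. miR-431-5p in RS became -0.19 after thinning. Leaving out 1 library moved miR-432-5p at PMD-Sen D16 between -0.24 and 0.17, miR-431-5p in RS between -0.068 and 0.22, and the PMD-Sen slopes of miR-337-3p between -0.031 and 0.23, miR-431-5p between -0.019 and 0.065, miR-433-3p between -0.049 and 0.082 and miR-432-5p between -0.1 and 0.034.

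With the replicate number as a block, members called were 19 before D16, 4 for PMD-Sen D16 and 5 for DDR-Sen D16, and the block changed no count. Replicate differences of 2 conditions correlated with a median r of 0.0415 (-0.458 to 0.366), over 0.1 in 53 of 153 pairs. The numbers were therefore not taken to pair the samples across all conditions. Within PMD-Sen D1 to D16 the median was 0.171 (-0.02 to 0.326), over 0.1 in 16 of 21 pairs, and miR-136-3p was higher and miR-433-3p lower in replicate 1 in all 7 conditions. Within DDR-Sen it was 0.008, over 0.1 in 7 of 21, and miR-493-5p and miR-370-3p were higher in replicate 1 in all 7. The block was 1 term shared by all conditions, so it could not fully take up a replicate difference found in 1 series. A block within PMD-Sen was not fitted, and whether its replicates are paired was not tested. With 63 to 1502 counts of miR-433-3p but 0 to 21 of miR-770-5p per library, depth limits the last.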
